A study of Mus musculus with 6 samples.

Results

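The 29 genes described here build, take up, store and export cholesterol. They were listed by symbol and matched to the rows of an expression table with 54532 genes, and each of the 29 symbols had 1 row. The RNA came from mouse melanomas, from which cells were sorted on CD11c, a surface integrin of dendritic cells and of many macrophages, and the labels call the sorted cells dendritic cells. In both groups the tumours grew from melanoma cells that were cultured with puromycin, mixed with matrigel, implanted into C57Bl/6 mice and harvested on day 28. In the Gli2CA group (3 libraries) the implanted cells carried an active Gli2, a transcription factor of the Hedgehog pathway, and in the NTC group (3 libraries) they carried a non-targeted control. The altered gene was therefore in the tumour cells and not in the sorted cells. The labels give no age or sex of the mice, no number of clones behind each line, and no word on whether each library had its own mouse. The p-values below therefore cover the spread among these 6 samples, which may be technical. Libraries are named by the number in their titles.

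Cells make cholesterol from acetyl-CoA through the mevalonate pathway and then through a chain of sterol intermediates. When sterol in the endoplasmic reticulum is low, the escort protein SCAP carries the transcription factor SREBP2 to the Golgi, where it is cut and released to switch on the synthesis genes, while INSIG proteins hold it back when sterol is plentiful. When sterol is high, oxysterols bind the nuclear receptors LXRalpha and LXRbeta, which switch on the export pumps ABCA1 and ABCG1 and the lipid carrier apolipoprotein E. Macrophages and dendritic cells also receive cholesterol from engulfed material through the lysosome and store the surplus as esters.

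None of the 29 genes passed the test. The unit was FPKM, which divides fragments by transcript length and by library size, and with limma on log2(FPKM + 1) 0 of 29 reached an adjusted p of 0.05, as did 0 of all 12266 genes tested (0%). At an unadjusted p under 0.05, 2 of the 29 had the higher mean in Gli2CA, Abca1 and Soat1, against 7.82% of all genes tested, and 0 had the lower mean, against 2.81%. With limma's voom on reads recovered from the FPKM, again 0 passed after adjustment, and 3 of 29 were higher at an unadjusted p under 0.05, against 10.5% of all genes in that fit. The 3 Gli2CA libraries lay wholly above the NTC libraries in 4 of 29, Fdps, Fdft1, Soat1 and Abca1, against 10.9% of all genes. They lay wholly below in 1 of 29, Mvd, against 5.79% of all genes. The mean was higher in 19 of 29, against 59.7% of all genes. These shares are near the background and are no result about the list. Without NTC 1 and NTC 3 the members without overlap came to 10 higher and 4 lower, against 23.1% and 30.8% of all genes. By the size of the log2 difference, the export pump Abca1 and the storage enzyme Soat1 were the members farthest apart.

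**Figure D1:**
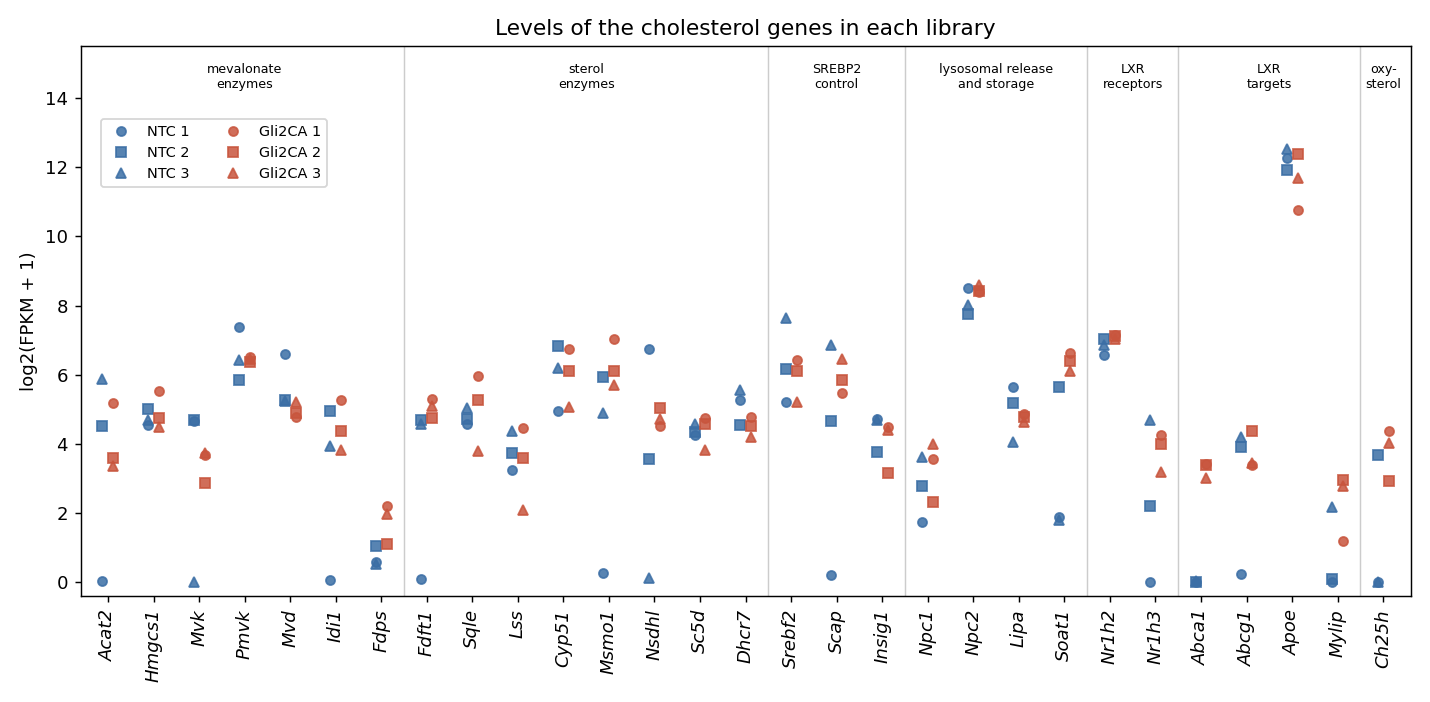
Level of each of the 29 genes in each library as log2(FPKM + 1), with genes on the horizontal axis grouped by role, blue points for NTC and red points for Gli2CA, and 1 marker shape per library number. Most synthesis genes of the 2 groups share a range, several genes are near 0 in NTC 1 or NTC 3 alone, and Abca1 is near 0 in all 3 NTC libraries.

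NTC 1 and NTC 3 held more genes near 0 than the other 4 libraries. In NTC 1, 11 of the 29 genes were under 0.5 FPKM, in NTC 3 5 were, and in NTC 2 2 were, namely Abca1 and Mylip. In the 3 Gli2CA libraries 0 of 29 were under 0.5 FPKM. Among all genes tested, 36.7% were under 0.5 FPKM in NTC 1, 30.3% in NTC 3, 10.2% in NTC 2 and 7.90 to 11.4% in the Gli2CA libraries. The fragments recovered per library came to 18780000 in NTC 1, 27880000 in NTC 2 and 23160000 in NTC 3, and to between 25490000 and 29130000 in Gli2CA. The part of these differences between libraries in the gene results was not tested, so each value below is given per library. NTC 2 is the control library with a detection like that of the Gli2CA libraries. It differed in another way, with a summed level of 7 fibroblast markers of 3404 FPKM, against 8.90 to 327 FPKM in the other libraries. NTC 2 is therefore no clean reference either, and the part of this RNA in its values was not tested.

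**Figure D2:**
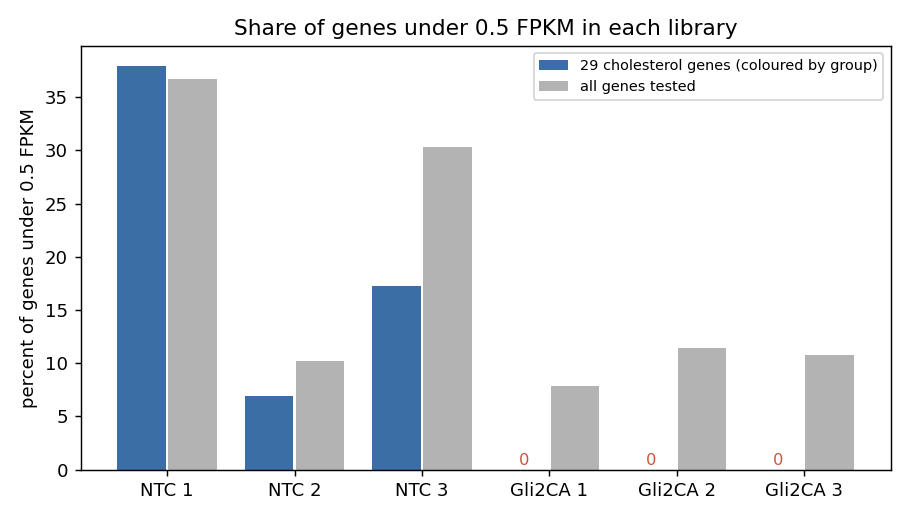
Percent of genes under 0.5 FPKM in each library, for the 29 cholesterol genes (blue bars for NTC; the 3 Gli2CA values are 0) and for all genes tested (grey bars). NTC 1 and NTC 3 had 36.7% and 30.3% of all genes under this level and NTC 2 had 10.2%.

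FPKM is scaled to transcript length, here the mean length of a gene's annotated transcripts, so levels can be compared only roughly between the genes. Apoe, which encodes the lipid carrier apolipoprotein E, was by far the most abundant of the 29 with a mean of 4170 FPKM over the 6 libraries. Npc2, a lysosomal cholesterol-binding protein, followed at 317 FPKM and Nr1h2, which encodes LXRbeta, at 124 FPKM. The lowest members were Fdps at 1.62, Mylip at 2.93 and Abca1 at 4.39 FPKM, the level of Fdps being uncertain because of near-identical copies. All 29 passed the minimum mean of 1 FPKM for testing. Abca1 and Fdps passed only through their Gli2CA values, with NTC means of 0.0154 and 0.670 FPKM, so that both had to differ in that direction to be tested.

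The 7 mevalonate enzymes, which turn acetyl-CoA into farnesyl pyrophosphate, did not move together. Their mean log2 value was higher in Gli2CA for 5 and lower for 2, and the median difference was 0.31, beside 0.25 for all genes tested. All log2 differences subtract NTC from Gli2CA after adding 1 to the FPKM, which makes changes of low genes look smaller than they are. Mvd, which decarboxylates mevalonate pyrophosphate and lies at chromosome 8, 122433601 to 122443422 (GRCm38), had 96.1, 37.6 and 37.2 FPKM in NTC 1, 2 and 3 and 26.2, 28.5 and 36.0 FPKM in Gli2CA 1, 2 and 3. All 3 Gli2CA values were below all 3 NTC values, with Gli2CA 3 close to NTC 2 and NTC 3. The log2 difference was -0.76 ± 0.50 (SE, limma adjusted p = 0.613), and it was -0.31 without NTC 1.

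Fdps, the synthase of farnesyl pyrophosphate, had 0.499, 1.07 and 0.441 FPKM in NTC and 3.63, 1.16 and 2.91 FPKM in Gli2CA. The groups did not overlap, but NTC 2 and Gli2CA 2 were next to each other. The log2 difference was 1.04 ± 0.70 (SE, limma adjusted p = 0.622), and it was -0.38 after quantile normalization. Its level is uncertain, because 4 processed pseudogenes match its transcripts at 96.1 to 98.9% identity over 605 bases or more and the authors' counting could have split or dropped shared reads. One of these pseudogenes, Gm3571, was listed at 0.440 to 1.71 FPKM. Fdps also shares 26.7% of its exon bases with Gm43738, an annotated protein-coding gene on the same strand. Gm43738 was listed at 0 in each library, and the counting could have split or dropped reads there too.

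Hmgcs1, the synthase of HMG-CoA, had 22.4, 31.0 and 25.1 FPKM in NTC and 45.5, 26.0 and 21.6 FPKM in Gli2CA, values that overlap (log2 difference 0.18 ± 0.49, SE). Idi1, which isomerises isopentenyl pyrophosphate, had 0.0455, 30.0 and 14.5 FPKM in NTC and 37.5, 19.9 and 13.1 FPKM in Gli2CA. The level of Idi1 is uncertain, because the processed pseudogenes Gm13502 and Gm35570 match it at 100% and 97.65% identity over 684 and 681 bases. The 0.0455 FPKM of NTC 1 corresponded to 1 read, while the other 5 libraries overlapped. Acat2, the cytosolic thiolase at the start of the pathway, showed the same pattern with 0.0313 FPKM in NTC 1 and 9.29 to 57.9 FPKM elsewhere. Part of its transcript matches Acat3 and Tcp1, so that its level is uncertain. Mvk, mevalonate kinase, was listed at 0 in NTC 3 and at 24.5 and 24.6 FPKM in NTC 1 and NTC 2, against 6.29 to 12.3 FPKM in Gli2CA. Pmvk, the kinase that makes mevalonate pyrophosphate, had 56.1 to 165 FPKM in NTC and 82.3 to 89.8 FPKM in Gli2CA.

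The 8 enzymes from squalene to cholesterol were also mixed, 4 with the higher and 4 with the lower mean log2 value, and their median log2 difference was 0.11. Fdft1, squalene synthase, the first step committed to sterols (chromosome 14, 63145150 to 63179578), had 0.0785, 24.7 and 22.7 FPKM in NTC and 38.5, 26.1 and 33.1 FPKM in Gli2CA. All 3 Gli2CA libraries were above the NTC libraries, with NTC 1 near 0 at 3 reads and NTC 2 close to Gli2CA 2. The difference on the log2 scale was 1.93 ± 1.18 (SE; adjusted p = 0.579 by limma) and became 0.43 without NTC 1. In the annotation 18.3% of its exon bases overlap Ctsb on the other strand. Ctsb, the lysosomal protease cathepsin B, was listed at 422, 784 and 689 FPKM in NTC and at 1091, 1409 and 852 FPKM in Gli2CA. The part of this overlap in the Fdft1 values was not tested. A processed pseudogene, Gm6781, matches Fdft1 at 97.44% identity over 1249 bases, so the level of Fdft1 is uncertain too.

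Msmo1, a methylsterol oxidase, had 0.205, 59.6 and 28.7 FPKM in NTC and 130, 67.8 and 51.2 FPKM in Gli2CA. NTC 1 was again near 0 and NTC 2 lay inside the Gli2CA range (log2 difference 2.59 ± 1.31, SE, limma adjusted p = 0.509). The difference was 0.88 without NTC 1 and 0.36 without NTC 1 and NTC 3. Nsdhl, the sterol dehydrogenase of the same demethylation step, reached 106 FPKM in NTC 1 and 0.0820 FPKM in NTC 3, around 22.0 to 31.8 FPKM in Gli2CA. Apart from Fdps, the enzymes under 0.5 FPKM in NTC 1 were not those under it in NTC 3. Of the 17 synthesis genes (the 15 enzymes, Srebf2 and Insig1), 5 were under 0.5 FPKM in NTC 1 and 3 in NTC 3, and Fdps was under it in both.

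The remaining sterol enzymes overlapped between the groups. Sqle, squalene epoxidase, a rate-limiting step, had 22.6, 25.5 and 31.9 FPKM in NTC and 60.8, 37.6 and 12.9 FPKM in Gli2CA. Cyp51, lanosterol demethylase, had 30.2, 112 and 71.6 FPKM in NTC and 106, 67.4 and 32.5 FPKM in Gli2CA. In both genes Gli2CA 1 was the highest of its group and Gli2CA 3 the lowest, as it was for Hmgcs1 and Idi1. Lss, lanosterol synthase, had 8.53 to 19.8 FPKM in NTC and 3.29 to 21.2 FPKM in Gli2CA, and Sc5d, a sterol desaturase, had 18.1 to 22.8 and 13.1 to 26.0 FPKM. Dhcr7, a late sterol reductase, had 37.6, 22.2 and 46.3 FPKM in NTC and 26.5, 22.1 and 17.6 FPKM in Gli2CA, and a difference of -0.62 ± 0.50 (log2, SE; limma adjusted p = 0.680), which was -0.40 without NTC 3.

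The genes that control SREBP2 overlapped as well. Srebf2, which encodes SREBP2, had 35.9, 70.7 and 198 FPKM in NTC and 85.5, 67.8 and 35.7 FPKM in Gli2CA. NTC 3 lay far above the other 5 libraries, which overlapped (log2 difference -0.42 ± 0.64, SE). Scap had 0.155, 24.1 and 115 FPKM in NTC and 43.4, 57.0 and 86.4 FPKM in Gli2CA, a wide NTC spread that contains the Gli2CA values. Insig1, itself an SREBP target, had 12.6 to 25.4 FPKM in NTC and 8.01 to 21.3 FPKM in Gli2CA.

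The lysosomal genes were close between the groups and the storage gene was not. Npc2 had 366, 215 and 260 FPKM in NTC and 335, 338 and 387 FPKM in Gli2CA (log2 difference 0.37 ± 0.25, SE, limma adjusted p = 0.627; 0.58 without NTC 1 and 0.19 without NTC 2). Npc1, the membrane protein that takes cholesterol from NPC2 out of the lysosome, had 2.38 to 11.4 FPKM in NTC and 3.999 to 15.0 FPKM in Gli2CA. Lipa, the acid lipase that frees cholesterol from esters, had 15.6 to 49.3 FPKM in NTC and 23.6 to 28.4 FPKM in Gli2CA. Soat1, which esterifies free cholesterol for storage in droplets and lies at chromosome 1, 156424525 to 156474331, had 2.74, 49.3 and 2.52 FPKM in NTC 1, 2 and 3. In Gli2CA 1, 2 and 3 it had 98.6, 82.5 and 67.4 FPKM.

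Each Gli2CA value of Soat1 exceeded each NTC value, and NTC 2 stood far above the other controls. The log2 difference was 3.25 ± 0.99 (SE, unadjusted p = 0.0107, limma adjusted p = 0.295). It was 0.72 when NTC 1 and NTC 3 were both left out, and 4.51 (limma adjusted p = 0.0883) without NTC 2, so its size depends on which controls are used. An exact two-sided permutation test of 3 against 3 libraries cannot give a p below 0.1, which is the value it gave for Soat1, Abca1, Fdft1, Fdps and Mvd.

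**Figure D3:**
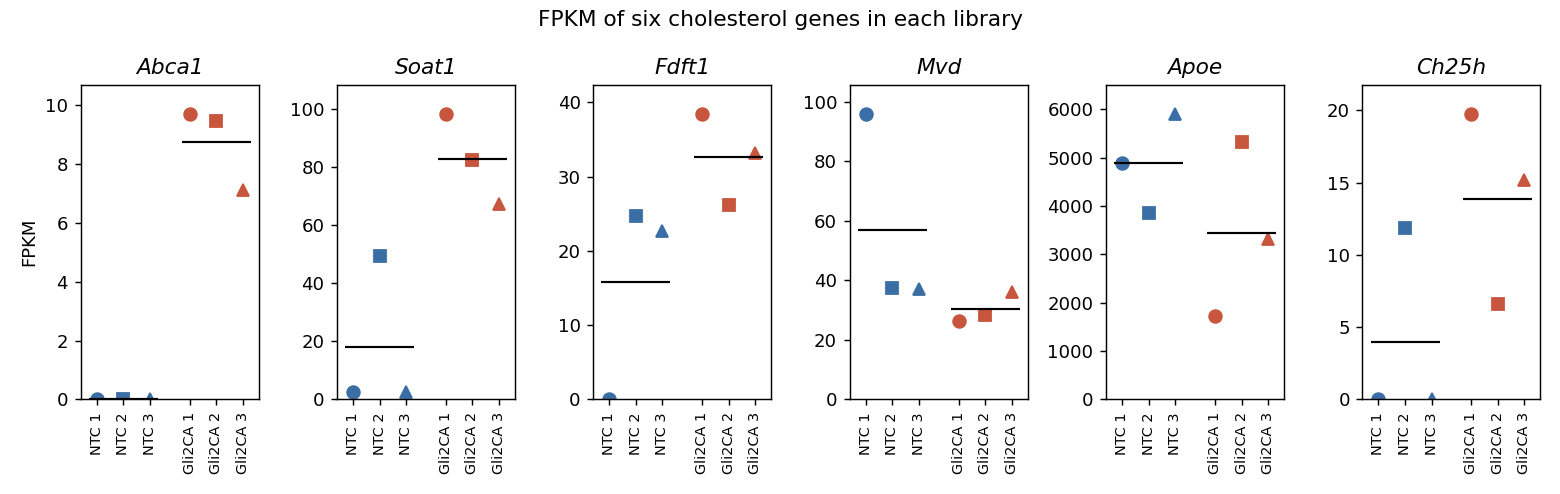
FPKM of Abca1, Soat1, Fdft1, Mvd, Apoe and Ch25h in each library on linear axes from 0, with blue points for NTC, red points for Gli2CA and a black line at the mean of the 3 libraries. Abca1 is near 0 in every NTC library and between 7.12 and 9.72 FPKM in Gli2CA, while Soat1 and Ch25h in NTC 2 lie nearer the Gli2CA libraries than those of NTC 1 and NTC 3 do.

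The LXR receptors overlapped between the groups. Nr1h2 was even across libraries, with 93.3, 131 and 116 FPKM in NTC and 140, 137 and 129 FPKM in Gli2CA (log2 difference 0.27 ± 0.27, SE; 0.14 without NTC 1). Nr1h3, which encodes LXRalpha, was listed at 0, 3.60 and 24.99 FPKM in NTC and at 18.1, 15.1 and 8.12 FPKM in Gli2CA. Its NTC values spanned the Gli2CA range (log2 difference 1.52 ± 1.19, SE, limma adjusted p = 0.680). The difference was 0.37 without NTC 1 and 2.72 without NTC 3.

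Among the LXR targets, Abca1 had the higher mean in Gli2CA and Apoe the lower. Abca1, the pump that loads cholesterol onto lipid-poor apolipoproteins (chromosome 4, 53030787 to 53159895), had 0.00965, 0.0130 and 0.0235 FPKM in NTC and 9.72, 9.46 and 7.12 FPKM in Gli2CA. The recovered reads were 1, 2 and 3 in NTC and 1562, 1384 and 1001 in Gli2CA. The gene was close to undetected in all 3 controls, NTC 2 included, and detected in all 3 Gli2CA libraries. Summed over each group and divided by the recovered fragments, the ratio was 566, with a 95% exact interval of 260 to 1543 that covers counting error only, since amplified reads are not independent molecules. The log2 difference was 3.25 ± 0.71 (SE, unadjusted p = 0.00164, limma adjusted p = 0.195), and Abca1 ranked 98 of 12266 genes by p. Abca1 passed the minimum mean for testing only through its Gli2CA values, so its p-values and rank are no support for the difference. With variances not tied to the mean level its adjusted p was 0.0569, and with voom on the recovered reads it was 0.0540. It was 0.401 after quantile normalization, and over the 16 alternatives that gave a value it ran from 0.0540 to 0.913.

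Apoe had 4896, 3861 and 5912 FPKM in NTC and 1725, 5320 and 3309 FPKM in Gli2CA, with Gli2CA 2 inside the NTC range and the other two below it. The log2 difference was -0.63 ± 0.36 (SE, limma adjusted p = 0.553), and it was -0.20 without Gli2CA 1 and -1.01 without Gli2CA 2. The mean of Apoe was lower in Gli2CA under each of the 17 alternatives, some of which leave the difference unchanged by construction. Abcg1, the pump that exports cholesterol to larger lipoproteins, had 0.181, 14.1 and 17.2 FPKM in NTC and 9.46, 19.9 and 9.89 FPKM in Gli2CA, and apart from NTC 1 the groups shared 1 range. Mylip, a ubiquitin ligase that removes lipoprotein receptors, was listed at 0, 0.0715 and 3.49 FPKM in NTC and at 1.31, 6.79 and 5.89 FPKM in Gli2CA, with NTC 3 inside the Gli2CA range.

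Promoter sequences are shown for Abca1, the member with the clearest separation, for Srebf1, an LXR target outside the 29 whose promoter holds the same motif, and for Hmgcs1, a synthesis gene with an SREBP motif. They are the 250 bases before the start in the RefSeq table (GRCm38.p6), 5′ to 3′ on the gene's strand, with capitals marking the motif match. The table held 24 of the 29 genes.
Abca1, chr4:53159896-53160145, minus strand: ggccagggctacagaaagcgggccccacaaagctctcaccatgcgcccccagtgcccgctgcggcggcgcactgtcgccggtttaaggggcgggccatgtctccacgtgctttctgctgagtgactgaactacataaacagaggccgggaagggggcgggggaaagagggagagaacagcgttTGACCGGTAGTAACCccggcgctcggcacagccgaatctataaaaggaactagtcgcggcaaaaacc
Srebf1, chr11:60210472-60210721, minus strand: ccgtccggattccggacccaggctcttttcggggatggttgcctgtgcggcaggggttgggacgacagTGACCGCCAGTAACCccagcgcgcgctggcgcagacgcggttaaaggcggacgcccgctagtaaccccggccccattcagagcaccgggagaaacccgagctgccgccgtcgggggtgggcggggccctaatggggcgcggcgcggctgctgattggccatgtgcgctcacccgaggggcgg
Hmgcs1, chr13:119690101-119690350, plus strand: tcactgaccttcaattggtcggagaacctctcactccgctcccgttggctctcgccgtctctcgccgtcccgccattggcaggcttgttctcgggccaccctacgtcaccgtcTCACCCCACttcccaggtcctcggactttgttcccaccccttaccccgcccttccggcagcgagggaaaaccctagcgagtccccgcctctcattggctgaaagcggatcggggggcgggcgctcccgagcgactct
The capitals in Abca1 and Srebf1 match GGTNA, then 5 bases of any kind, then GGTNA, read on the opposite strand, a relaxed form of the direct repeat with a 4-base spacer that LXR binds, and in Hmgcs1 they match TCACNCCAC, a form of the sterol regulatory element bound by SREBP.

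Both strands were searched, and a match describes letters only. The direct repeat occurred in 0.621% of the 32851 promoters of the table, and among the 24 in Abca1 alone, where it lay 67 to 53 bases before the start. It was not in this window of Apoe or Mylip, and Abcg1 was not searched. The sterol element occurred in 1.05% of all promoters and among the 14 synthesis genes in the table in Hmgcs1 alone, 137 to 129 bases before the start. CCAAT, the motif of the factor NF-Y that acts beside SREBP, occurred in 33.8% of all promoters and in the promoter of 13 of the 14 synthesis genes. Per gene symbol, 37.5% of all symbols in the table held CCAAT. The motif letters were chosen with the expression values known, and no motif count was tested.

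Ch25h, an interferon-inducible enzyme that makes 25-hydroxycholesterol, was listed at 0, 11.9 and 0 FPKM in NTC and at 19.8, 6.62 and 15.2 FPKM in Gli2CA. NTC 2 lay inside the Gli2CA range, and the other controls had no signal. The product is a known LXR ligand and a known blocker of SREBP2 processing. Its log2 difference was 2.55 ± 1.17 (SE, unadjusted p = 0.0602, limma adjusted p = 0.479). It was 0.09 without both NTC 1 and NTC 3, so the difference rests on those libraries.

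**Figure D4:**
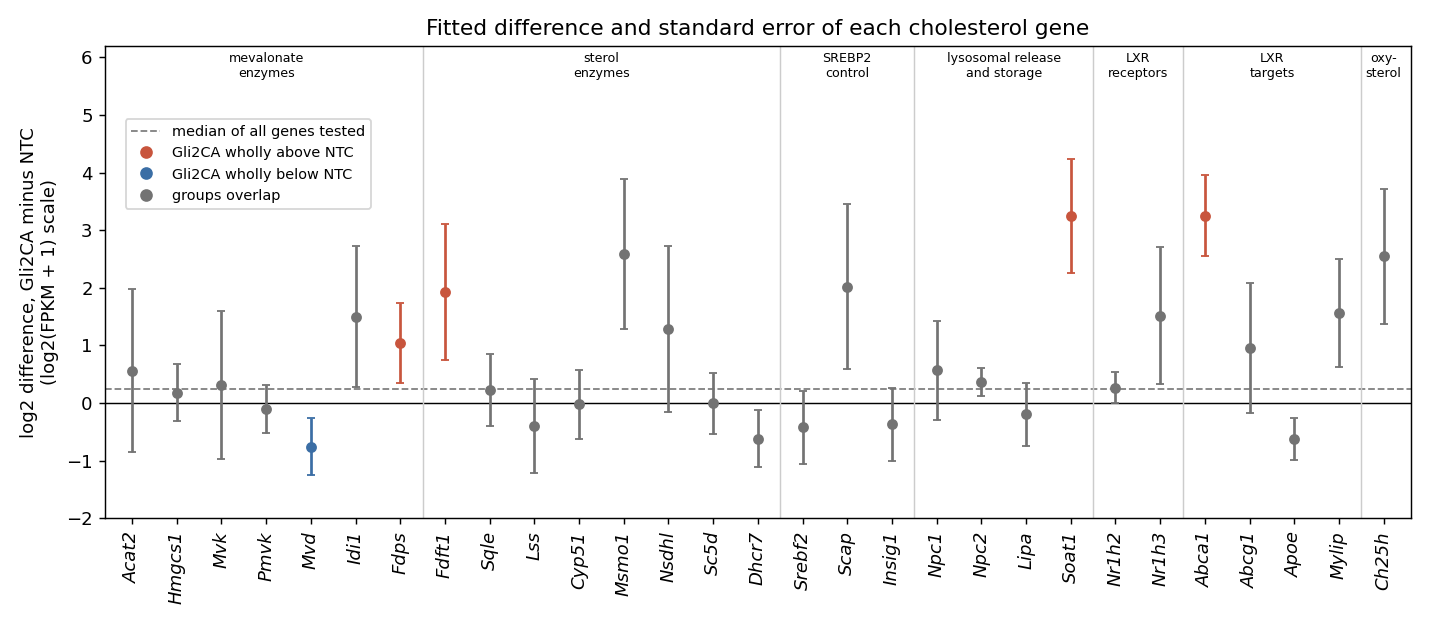
Fitted log2 difference, Gli2CA minus NTC, of each of the 29 genes with its standard error from limma, grouped by role; red marks Gli2CA wholly above NTC, blue wholly below and grey overlap. The dashed line is the median of all genes tested, 0.25, and the synthesis genes scatter around it with a median of 0.18.

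Synthesis was set against efflux as the 17 synthesis genes against the LXR targets Abca1, Abcg1, Apoe and Mylip. The synthesis genes had 9 higher and 8 lower means in Gli2CA and a median log2 difference of 0.18, beside 0.25 for all genes tested. That median was -0.13 without Gli2CA 1 and 0.40 without Gli2CA 3. The LXR targets had 3 higher and 1 lower and a median of 1.26. As mean log2(FPKM + 1), the synthesis level was 3.72, 4.68 and 4.38 in NTC and 5.15, 4.54 and 4.30 in Gli2CA. The efflux level was 3.13, 3.99 and 4.73 in NTC and 4.69, 5.78 and 5.24 in Gli2CA. Both overlapped between the groups, the efflux level through NTC 3 and Gli2CA 1.

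Synthesis minus efflux was 0.59, 0.70 and -0.35 in NTC and 0.46, -1.23 and -0.93 in Gli2CA. The group means were 0.31 ± 0.58 and -0.57 ± 0.90 (SD, n = 3 each). Their difference of -0.88 was near the Gli2CA SD and above the NTC SD in size, and it was not tested. It was -1.40 without Gli2CA 1 and -0.55 without Gli2CA 2. Without Abca1 in the efflux group, a choice made after seeing the data, the difference was -0.22. The libraries of the groups overlapped in this balance. With a minimum mean of 5 FPKM, which removes Abca1, Mylip and Fdps, it was 0.20 in the opposite direction.

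**Figure D5:**
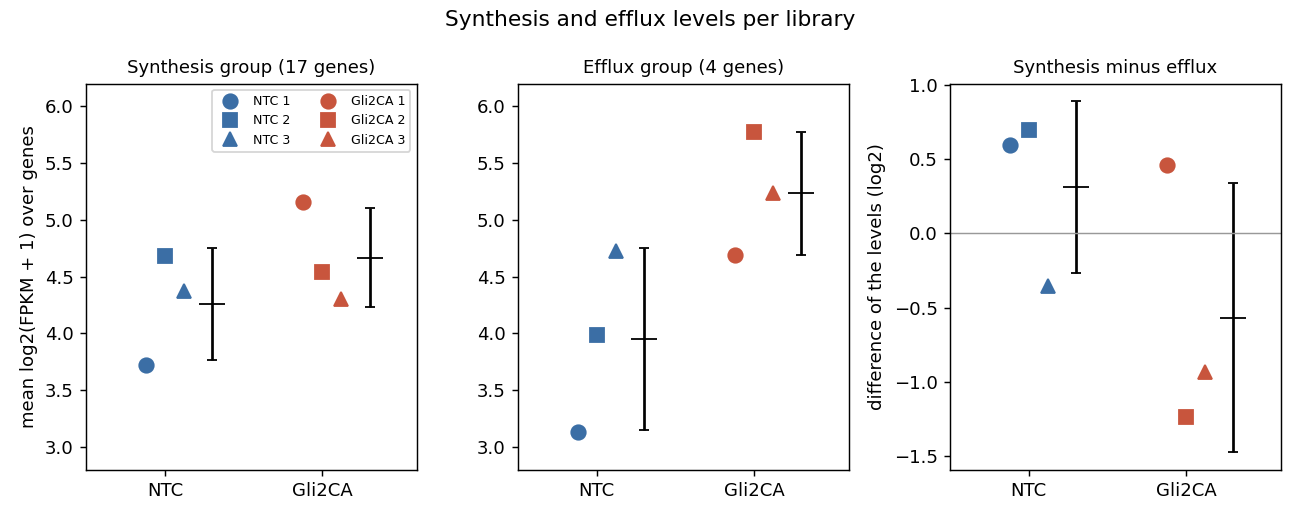
Mean log2(FPKM + 1) of the 17 synthesis genes and of the 4 efflux genes, and their difference, in each library, with blue markers for NTC and red for Gli2CA. Black bars give the mean and SD of the 3 libraries. The groups overlap in all 3 panels.

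Other genes of the pathway were read from 3 further lists. Of 12 other synthesis and SREBP-processing genes, 9 had the higher and 3 the lower mean and 0 passed (limma, 0 also at an unadjusted p under 0.05). Among all genes tested, 59.7% had the higher mean and 10.9% were wholly higher. At an unadjusted p under 0.05 (limma), 7.82% of all genes were higher and 2.81% lower. Ggps1, which makes geranylgeranyl pyrophosphate, had 26.6, 26.8 and 0.244 FPKM in NTC and 39.5, 45.4 and 37.6 FPKM in Gli2CA, without overlap. Insig2 had 19.4 to 53.0 FPKM in NTC and 28.6 to 103 FPKM in Gli2CA, and Erg28, a scaffold of the sterol enzymes, had 37.2 to 54.3 and 15.4 to 37.4 FPKM. Of 12 other LXR targets and partners, 10 were tested, Apoc1 and Apoc2 being listed at 0 in all libraries. Of the 10, 8 had the higher mean, against 59.7% of all genes tested, and 0 passed (0 also at an unadjusted p under 0.05). Mertk, with an NTC mean of 0.736 FPKM, passed the minimum mean only through its Gli2CA values.

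Srebf1, which encodes the lipogenic SREBP1, had 44.5, 55.3 and 66.5 FPKM in NTC and 139, 68.4 and 67.1 FPKM in Gli2CA. Gli2CA lay wholly above NTC, as in 10.9% of all genes tested. Gli2CA 2 and Gli2CA 3 were next to NTC 3 (log2 difference 0.65 ± 0.41, SE, limma adjusted p = 0.590). Scd1, the stearoyl-CoA desaturase, had 0.0110, 4.64 and 0.0179 FPKM in NTC and 15.9, 11.4 and 0.973 FPKM in Gli2CA. Rxra, the partner receptor of LXR, had 0.0239, 8.65 and 0.0194 FPKM in NTC and 4.32, 6.26 and 12.8 FPKM in Gli2CA. In both genes NTC 2 lay inside the Gli2CA range.

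Of 15 other uptake and transport genes, 11 had the higher mean and 5 were without overlap, all higher, while 0 passed and 3 had an unadjusted p under 0.05, all higher. Among all genes tested these shares were 59.7%, 10.9% and 7.82%. Vldlr and Lrp8, with NTC means of 0.00569 and 0.0558 FPKM, passed the minimum mean only through their Gli2CA values. Both therefore had to be higher to be tested, and Lrp8 was among the 5 without overlap. Osbpl9, an oxysterol-binding-like lipid transfer protein, had 4.41, 49.2 and 80.1 FPKM in NTC and 130, 139 and 98.2 FPKM in Gli2CA. Lrp1, a receptor for apolipoprotein E-bearing particles, had 34.7, 39.6 and 2.66 FPKM in NTC and 158, 63.3 and 49.3 FPKM in Gli2CA. Msr1, which takes up modified lipoproteins, had 26.5, 50.2 and 22.9 FPKM in NTC and 250, 265 and 146 FPKM in Gli2CA. For it NTC 2 was also well below the Gli2CA libraries (log2 difference 2.73 ± 0.42, SE, limma adjusted p = 0.178).

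The 5 core dendritic cell markers were above 0 in every library. Itgax, which encodes the sort marker CD11c, had 62.4 to 117 FPKM in NTC and 118 to 224 FPKM in Gli2CA. The other 4 (Flt3, Zbtb46, H2-Ab1 and Ciita) had the lower mean log2 value in Gli2CA, as did 4 of 5 markers of type 2 dendritic cells. Among all genes tested, 4943 of 12266 had the lower mean. Ciita had 113 to 207 FPKM in NTC and 67.6 to 91.8 FPKM in Gli2CA, wholly lower, as were 5.79% of all genes tested. Zbtb46 was lowest in NTC 1 at 2.33 FPKM. No marker of any list passed the test (limma). Each of the 8 monocyte markers had its higher mean in Gli2CA, against 59.7% of all genes tested. In 3 of the 8 Gli2CA lay wholly above NTC, against 10.9% of all genes. The summed level of the 8 was 1643 to 2087 FPKM in NTC and 3326 to 4736 FPKM in Gli2CA. Vcan was listed at 0 in all NTC libraries and in Gli2CA 3, so it was tested only through its Gli2CA values. Of 8 macrophage markers 6 had the higher mean and 2 lay wholly higher, with a median log2 difference of 0.20 and 0 of them at 0. Their summed levels overlapped, with 2622 to 4250 FPKM in NTC and 3150 to 4129 FPKM in Gli2CA. All 7 markers of type 1 dendritic cells had the lower mean, and 5 of the 7 lay wholly lower, against 5.79% of all genes tested. Their sums were 1063 to 1975 FPKM in NTC and 663 to 785 FPKM in Gli2CA. The part of these marker lists in the cholesterol gene results was not tested. In bulk RNA a change in the number of cells of a type and a change in RNA per cell cannot be told apart.

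The summed melanocytic list was 0 to 1.34 FPKM in NTC and 18.0 to 24.1 FPKM in Gli2CA. Most of the Gli2CA sum was Sox10, at 12.1 to 19.8 FPKM. Mitf had 1.43, 5.93 and 0.817 FPKM in Gli2CA 1, 2 and 3 and 1.34 FPKM in NTC 2. Pmel had 2.88 FPKM in Gli2CA 1. Mlana, Tyrp1, Dct and Tyr were listed at 0 in all 6 libraries. The summed fibroblast list was 3404 FPKM in NTC 2, 28.6 and 8.90 FPKM in NTC 1 and NTC 3 and 59.97 to 327 FPKM in Gli2CA. The summed neutrophil list was 56.0 to 76.8 FPKM in NTC and 17.9 to 287 FPKM in Gli2CA, with Retnlg and Ly6g listed at 0 in all 6. The summed T cell list was 515 to 1016 FPKM in NTC and 369 to 581 FPKM in Gli2CA. The part of these lists in the values of the 29 genes was not tested either.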

How the data were processed

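RNA was measured in 6 libraries, 3 per group. Per the labels' protocols, tumours were digested, CD11c-positive cells were sorted, and libraries were made from poly-A RNA with the NEBNext Ultra II kit. The authors deposited FPKM, as the table's name states. The aligner, build and strand setting were not given in the sources used here. Symbols were found for 54409 of 54532 IDs, and coordinates and mean transcript lengths came from GENCODE M21 (GRCm38). FPKM times length gave whole reads within 0.05 for 96.7 to 98.4% of values under 20 reads.

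A mean FPKM of 1 or more was required for testing. Log2 values after adding 1 were compared by group with limma 3.58.1 (R 4.3.3), a variance trend and Benjamini-Hochberg adjustment over 12266 genes, threshold 0.05. Near-identical copies were searched with blastn 2.17.0. The numbers in titles or descriptions did not pair the libraries. Members, lists and roles were chosen with earlier results of these data known. Values per library were given for members without overlap and for those with the smallest p per role, and for up to 3 genes per further list. Figures used Python 3.11.15 and matplotlib 3.10.9.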

Additional observations from a re-analysis of the deposited data

How the results depend on the processing

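Under the 17 alternatives run on all genes, voom included, 0 of 29 members reached an adjusted p of 0.05, the lowest being 0.0540 for Abca1. Among all genes quantile normalization called 21 where the main test called 0, and it moved the median log2 difference of all genes from 0.25 to -0.03. The direction of 14 of 29 members held in every alternative that gave a value, Abca1, Soat1, Fdft1, Mvd, Apoe and Ch25h among them. Abca1, Mylip and Fdps gave none with a minimum mean of 5 FPKM.

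Same-numbered libraries did not deviate together (r of -0.04, -0.0018 and -0.0066 by title number). A replicate block by title number leaves the fitted differences as they are by construction, with 1088 of all genes at an unadjusted p under 0.05 in place of 1304, and by description number there were 393. With the replicate block by description number the log2 difference was -0.53 for Nsdhl, -0.97 for Mvk, 0.0092 for Cyp51, 0.13 for Srebf2 and 0.20 for Insig1, each opposite in sign to the reported value.

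The efflux median of 1.26 became 2.45 with a pseudocount of 0.1, 0.17 with a minimum mean of 5 FPKM, 0.47 after quantile normalization and 3.07 with voom. The difference in synthesis minus efflux, -0.88, became -1.88 with that pseudocount and 0.20 with that minimum, which removes Abca1 and Mylip. The synthesis median of 0.18 was -0.00068 after quantile normalization. The cause of the other shifts was not tested. Fdps was -0.38 after quantile normalization, Cyp51 0.012 and Sc5d 0.029 after rescaling to one sum, and Sc5d 0.0067 with voom.

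Leaving out libraries (each in turn, and NTC 1 with NTC 3) gave an efflux median from 0.44 (without NTC 1) to 1.97 (without NTC 3), a synthesis median from -0.13 to 0.40 and a difference in synthesis minus efflux from -1.40 to -0.55. Over the same fits Acat2 ran from -1.16 to 1.76, Hmgcs1 from -0.13 to 0.40, Mvk from -1.25 to 1.09, Pmvk from -0.46 to 0.61 and Idi1 from -0.46 to 2.48. Sqle ran from -0.24 to 0.83, Lss from -0.94 to 0.24, Cyp51 from -0.86 to 0.43, Nsdhl from -0.40 to 2.92 and Sc5d from -0.19 to 0.28. Srebf2 ran from -0.99 to 0.23, Insig1 from -0.68 to 0.25, Lipa from -0.65 to 0.15 and Abcg1 from -0.31 to 1.66. Where NTC 2 was the lone control, it was taken to have the spread of the other group. At the median transcript length 1 read was worth 0.0218 to 0.0338 FPKM, so depth limits what can be said of single values near that level. For Abca1, NTC 2 had 2 reads at 27880000 recovered fragments and Gli2CA 3 had 1001 reads at 25490000. The part of depth in the Abca1 difference was not tested.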
